A study of Botryllus schlosseri with 27 samples.

Results

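Colonies of line SMH of the colonial ascidian Botryllus schlosseri were compared at 2 years and at 4 months of age, in 6 of the 27 RNA-seq libraries of the series. The members were taken from the sample labels alone. The 3 libraries of the older age carry the genotype name SMH_g2 and came from whole colonies 2 years old. The 3 libraries of the younger age carry the genotype name SMH_g3 and came from whole colonies 4 months old. SMH_g2 is labelled as an F1 of the 3-year-old SMH_g1, and SMH_g3 as an F1 of SMH_g2. All colonies were raised in the laboratory, and the labels give no treatment. The methods place all experiments at stage B2 of the budding cycle, and give 3 systems per sample, the star-shaped groups of zooids in a colony, for the 4-month-old samples. The libraries of an age share 1 genotype name, so the p-values below measure the spread between libraries of that name and not between colonies, and age, generation and colony cannot be told apart.

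A Botryllus colony is a set of genetically identical zooids that share a blood vessel network in a common tunic. Each zooid has a gut, a heart, a nervous system and, when fertile, ovaries and testes, and it is replaced by its buds in a cycle of weeks while the colony lives on for months to years. RNA of a whole colony therefore mixes gut, gonad, blood, vessel and tunic cells, and fewer cells of a type cannot be told apart from less RNA per cell. Digestive enzymes come from the gut, flagellar and spermatid proteins mark ripe testes, and lectins and complement proteins belong to the blood cells and fluids of ascidian immunity.

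The 2-year-old libraries held 33760728, 43704396 and 33140508 reads, against 31013902, 45419128 and 41611738 reads in the 4-month-old libraries. A level is given as CPM, counts scaled to a common library size after TMM normalization within these 6 libraries. Library levels correlated across contigs at 0.981 to 0.985 within an age and at 0.784 to 0.822 between the ages. The 20 most abundant contigs took 22.1% to 27.8% of the reads at 2 years and 19.9% to 24.5% at 4 months. Contigs are sequences of an EST assembly, and homolog names are human proteins matched by the study. The names at hand cover 888 contigs of a table that the study chose for differing between 3 years and 4 months in libraries that include SMH_g3, so the direction of a named contig is not independent evidence. Several contigs can bear 1 name as pieces or near-identical copies of a gene, so a count of contigs is no count of genes.

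Of 50106 contigs, 28972 reached 1 CPM in 3 or more of the 6 libraries and were tested with edgeR's quasi-likelihood test. A contig near 0 at one age could pass this filter through the other age alone, which then fixed its direction. At 10% FDR (Benjamini-Hochberg), 16620 contigs, 57.4% of those tested, differed between the ages. Of these, 8433 contigs (29.1%) were higher and 8187 (28.3%) were lower at 2 years. The median log2 fold change over all contigs was -0.01, with quartiles of -0.34 and 0.47, so most differences were small. The large ones were mostly rises. Called changes above 2-fold were 3690 higher (12.7%) and 1521 lower (5.25%), and beyond a log2 fold change of 3 there were 1086 higher and 204 lower. The libraries of the 2 ages did not overlap in 59.5% of contigs, 29.5% with 2 years on top and 30% with 4 months on top. The named contigs leaned to one side, with 491 of 598 tested higher (82.1%) and 68 lower (11.4%), and a median log2 fold change of 2.71. The lists below are drawn from named contigs, so their counts and medians are to be read beside these values. The unnamed contigs split nearly evenly, with 7942 higher and 8119 lower.

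**Figure D1:**
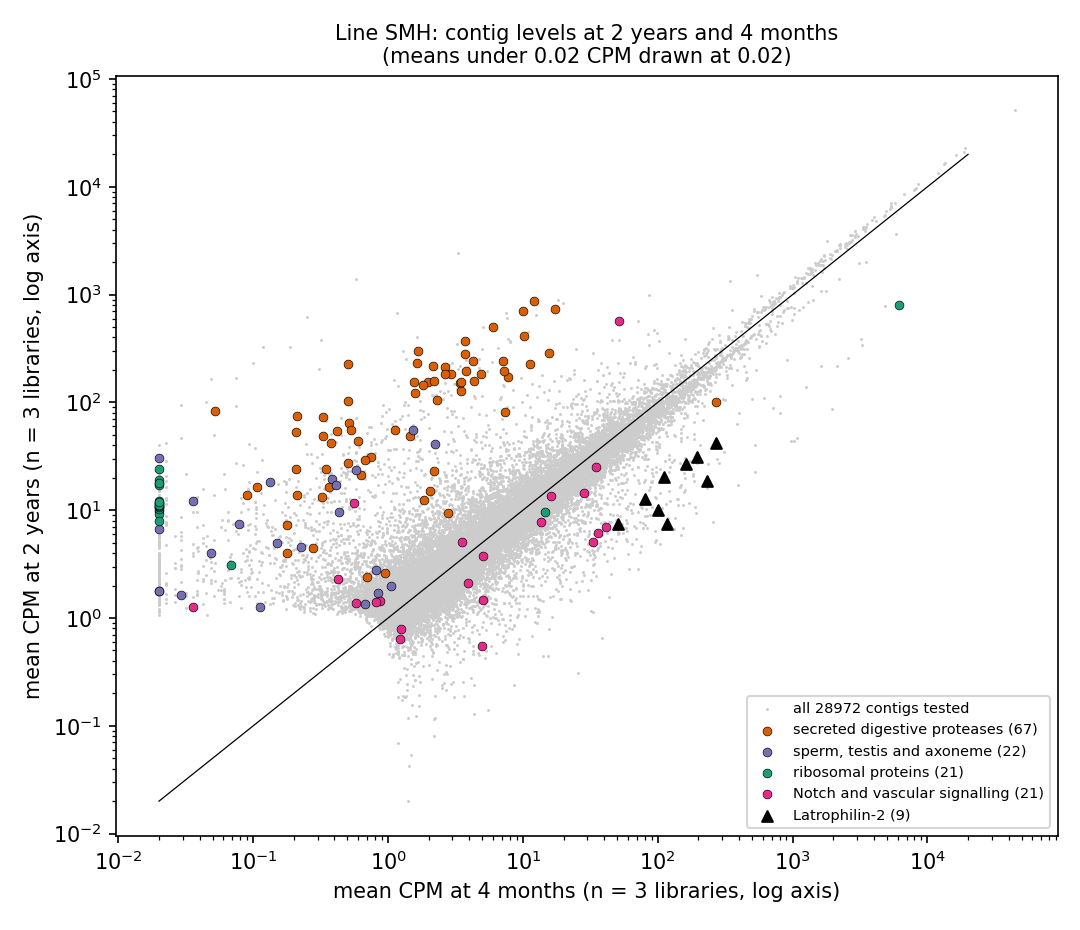
Mean CPM of each tested contig at 2 years (vertical, log axis) and at 4 months (horizontal, log axis), n = 3 libraries each, with 4 lists of homologs and the Latrophilin-2 contigs in color and the line of equal levels. All but 1 of the 67 tested digestive proteases lie above the line, 18 ribosomal contigs stand at the left edge with 0 reads at 4 months, and the 9 Latrophilin-2 contigs lie below the line.

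Digestive enzymes rose together. Ascidian zooids filter algae from the water and digest them with enzymes that in vertebrates are made by the pancreas. The list of secreted digestive proteases (trypsins, chymotrypsins and carboxypeptidases) held 70 contigs, of which 67 were tested, 66 were higher at 2 years and 1 was lower. The share higher was 98.5%, against 82.1% of named contigs and 29.1% of all tested contigs. The median log2 fold change of the list was 5.80, against 2.71 over named contigs and -0.01 over all contigs. In this and the other gut lists, contigs under 1 CPM at 4 months could pass the filter only through the 2-year-old libraries. The shared direction of such contigs is not independent evidence. Summed over the list, the level was 12063, 5814 and 11789 CPM at 2 years, against 265, 523 and 613 CPM at 4 months. The ages did not overlap, and replicate 2 of the 2-year-old libraries held less than the other 2. With that library left out, 66 contigs were called higher and 1 lower.

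All 27 Trypsin-2 contigs were higher, with log2 fold changes of 4.18 to 8.65. The most abundant of them, CAP3_round1_contig_6862, was at 1081, 488 and 1021 CPM at 2 years, against 3.66, 16.4 and 16.5 CPM at 4 months. Its log2 fold change was 6.13 ± 0.84 (SE, edgeR adjusted p = 0.00495). A second abundant Trypsin-2 contig, Bot_rep_c48453, was at 909, 406 and 868 CPM at 2 years, against 4.14, 21.8 and 26.3 CPM at 4 months. In both, replicate 1 of the 4-month-old libraries was the lowest of all. Chymotrypsinogen B2 was higher in 14 of 14 tested contigs, and its 15 contigs summed to 3389, 1731 and 3271 CPM at 2 years, against 25.7, 72.2 and 84.9 CPM at 4 months. The largest rise of the list was that of Carboxypeptidase A2 contig Bot_rep_c34931, at 101.4, 46.9 and 99.9 CPM at 2 years, against 0, 0.16 and 0 CPM at 4 months (edgeR adjusted p = 7.2e-04). The single contig of the list that fell bears the same name. Carboxypeptidase A2 contig CAP3_round1_contig_6849 was at 106, 81.2 and 116 CPM at 2 years, against 189, 284 and 344 CPM at 4 months, a log2 fold change of -1.43 ± 0.27 (SE, edgeR adjusted p = 0.00889).

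Enzymes of carbohydrate and lipid digestion rose in 16 of 16 tested contigs, with a median log2 fold change of 3.30. Of named contigs 82.1% were higher, with a median of 2.71. All 18 listed contigs together were at 408, 212 and 386 CPM at 2 years, against 19.8, 27.2 and 30.8 CPM at 4 months. Alpha-amylase 1 contig Bot_rep_c58397, the starch-cleaving enzyme, was at 119, 48.4 and 119 CPM at 2 years, against 0.47, 1.73 and 1.77 CPM at 4 months (log2 fold change 6.09 ± 0.67, SE, edgeR adjusted p = 0.00242). Colipase, the cofactor of pancreatic lipase, was at 18.2, 9.93 and 20.7 CPM at 2 years, against 0.20, 0.24 and 0.48 CPM at 4 months. As with the proteases, replicate 2 was the lowest of the 2-year-old libraries, while the 4-month-old libraries were all far below it.

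Genes of the absorbing gut surface rose as well, with a smaller median than the secreted enzymes. Brush border peptidases and nutrient transporters were higher in 32 of 33 tested contigs (97%) and lower in 1. Their median log2 fold change was 2.93, near the 2.71 of named contigs, of which 82.1% were higher. Glutamyl aminopeptidase, which trims acidic residues from peptides, was at 218, 164 and 215 CPM in contig Bot_rep_c54104 at 2 years, against 19.5, 25.1 and 26.8 CPM at 4 months. Its log2 fold change was 3.06 ± 0.16 (SE, edgeR adjusted p = 2.3e-06). Excitatory amino acid transporter 3, a glutamate carrier, rose in 3 of 3 contigs by log2 fold changes of 4.10 to 4.22. Cubilin, the endocytic receptor for vitamin B12 bound to intrinsic factor in mammals, was at 9.6, 5.54 and 6.27 CPM in contig Bot_c34756 at 2 years, against 0.07, 0.08 and 0.10 CPM at 4 months. Sodium-coupled monocarboxylate transporter 1 contig Bot_c17643 fell, at 9.05, 8.73 and 9.87 CPM at 2 years, against 12.3, 12.4 and 12.6 CPM at 4 months.

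Lysosomal homologs rose in 18 of 19 tested contigs (94.7%), and 1 fell. Their median log2 fold change was 2.98, near the 2.71 of named contigs, of which 82.1% were higher. Proactivator polypeptide, the precursor of the saposins that help to break down sphingolipids, was higher in 7 of 7 contigs, which together were at 416, 308 and 398 CPM at 2 years, against 33.0, 50.5 and 56.4 CPM at 4 months. Cathepsin F contig Bot_c5240, a lysosomal protease, had 1600 reads in the 2-year-old libraries and 0 at 4 months, at least 608-fold higher against a floor of 3 reads over the group. The exception was Lysosomal protective protein, cathepsin A in mammals. Its contig Bot_c7256 was at 0.97, 0.97 and 0.74 CPM at 2 years, against 10.8, 14.02 and 13.2 CPM at 4 months (log2 fold change -3.83 ± 0.17, SE, edgeR adjusted p = 4.5e-09).

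**Figure D2:**
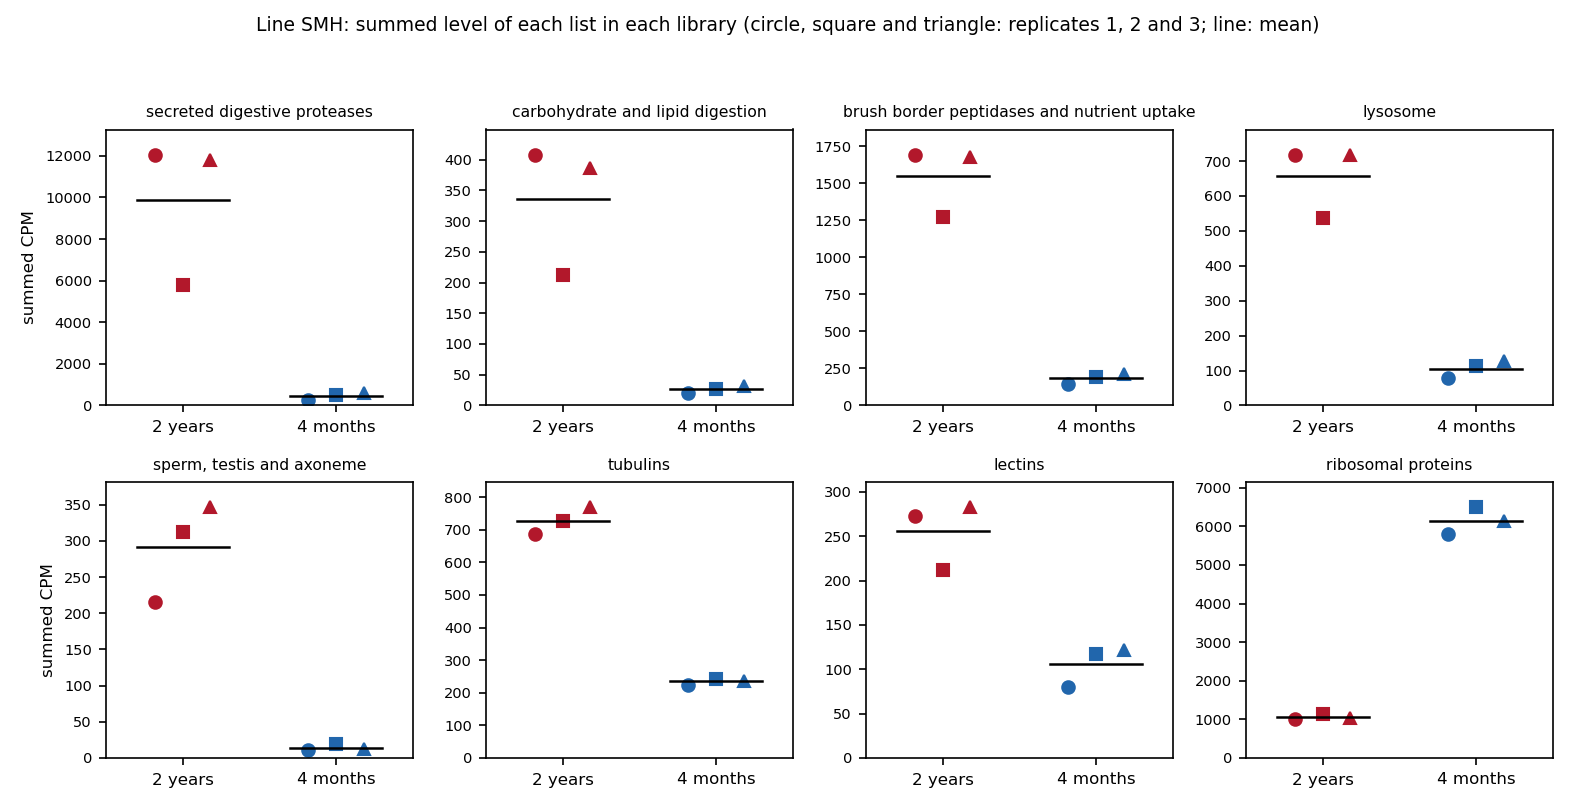
Summed CPM of 8 lists in each library, 2 years left of 4 months, with 1 mark for each replicate and a line at the mean of 3. In the 4 gut and lysosome panels replicate 2 (square) is the lowest 2-year-old library, in the sperm panel replicate 1 (circle) is, and the ribosomal panel is carried by a single contig that is higher at 4 months.

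Genes of sperm, testis and the axoneme, the microtubule core of the flagellum, were next. Of 50 listed contigs 22 were tested, and all 22 were higher at 2 years, with a median log2 fold change of 5.17. Of named contigs 82.1% were higher, and of all tested contigs 29.1%. Listed contigs under 1 CPM at 4 months could pass the filter only through the 2-year-old libraries, so their shared direction is not independent evidence. All 50 listed contigs together were at 215, 312 and 347 CPM at 2 years, against 11.6, 18.7 and 12.0 CPM at 4 months. Here replicate 1 was the lowest of the 2-year-old libraries, whereas it was among the higher ones in the gut lists, and the part of tissue content in either result was not tested. Testis-specific serine/threonine-protein kinase 1, named for its place of expression in mammals, was at 32.1, 63.5 and 72.1 CPM in contig Bot_rep_c45338 at 2 years, against 0.07, 4.40 and 0.14 CPM at 4 months. Its log2 fold change of 5.02 ± 1.24 passed the test (SE, edgeR adjusted p = 0.0309), although replicate 2 of the 4-month-old libraries stood apart from the others. Fibrous sheath-interacting protein 2, of the sperm tail, was at 23.4, 48.3 and 51.1 CPM at 2 years, against 1.83, 2.98 and 1.86 CPM at 4 months. Outer dense fiber protein 3-like protein 2 was at 9.33, 20.6 and 24.5 CPM at 2 years, against 0, 0.35 and 0.05 CPM at 4 months. Kelch-like protein 10, a ubiquitin ligase adaptor of mouse spermatids, rose in 3 of 3 contigs, which were together at 15.6, 31.4 and 33.6 CPM at 2 years and 0.47, 0.94 and 0.43 CPM at 4 months.

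Other contigs of the list had another order of libraries. Dynein heavy chain 8, an axonemal motor, also rose in 4 of 4 tested contigs, by log2 fold changes of 5.49 to 9.07, yet its 7 contigs together were at 34.7, 19.8 and 28.3 CPM at 2 years, with replicate 1 the highest, against 0.47, 0.43 and 0.38 CPM at 4 months. Histone H2B type 1-A, a testis variant in mammals, is the largest fitted change among the named contigs. Its contig Bot_c4120 had 34.8, 28.7 and 28.5 CPM at 2 years, from 3246 reads, and 0 reads at 4 months, at least 1233-fold higher. It belongs to a set described further on, in which other genes of general use behave alike.

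Tubulins, the subunits of microtubules, divided into contigs that rose and contigs that fell. Of 12 tested contigs 8 were higher (66.7%) and 4 lower (33.3%), against 82.1% higher and 11.4% lower of named contigs. Those that fell are the tubulins that the paper lists in its main text, and each fell by a small step. Tubulin alpha-3C/D contig CAP3_round1_contig_7678 was at 67.0, 65.1 and 74.8 CPM at 2 years, against 88.8, 99.2 and 92.5 CPM at 4 months (log2 fold change -0.44 ± 0.08, SE, edgeR adjusted p = 5.2e-04). Tubulin alpha-1A (Bot_rep_c58495) had a log2 fold change of -0.30, Tubulin alpha-3E one of -0.48 and Tubulin beta-2C (Bot_rep_c57029) one of -0.45. None of the 4 overlapped between the ages. Among those that rose, 3 Tubulin beta-2C contigs and a Tubulin beta-3 contig had log2 fold changes of 1.84 to 2.16, and in each of them replicate 1 was the lowest 2-year-old library, as in the testis kinase. The most abundant of these 4, CAP3_round1_contig_6873, was at 60.5, 101.2 and 112 CPM at 2 years, against 18.3, 22.6 and 22.9 CPM at 4 months. A further Tubulin beta-2C contig, Bot_c25642, was at 178, 166 and 150 CPM at 2 years, against 0.07, 0.08 and 0 CPM at 4 months. With all 27 libraries scaled together, it and Tubulin alpha-1B contig Bot_c19190 were at 169 and 171 CPM in SMH at 2 years. Otherwise they reached 1 CPM only in line SMG at 3 years, like the ribosomal contigs described further on. In SMH they passed the filter through the 2-year-old libraries alone, which fixed their direction. They make up a large part of the tubulin sum, 747 CPM in SMH at 2 years on that scale. Tubulin alpha-3C/D contig Bot_c25399 had the order of the gut lists instead, at 19.5, 9.88 and 19.5 CPM at 2 years, against 0.07, 0 and 0 CPM at 4 months.

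Actin, which forms the contractile and cortical filaments of cells, and the extracellular matrix showed modest differences at their most abundant contigs. Cytoplasmic actin contig CAP3_round1_contig_6729 was at 207, 227 and 223 CPM at 2 years, against 424, 474 and 410 CPM at 4 months. This was a log2 fold change of -0.995 ± 0.09 (SE, edgeR adjusted p = 2.4e-06). Actin related protein 2/3, which nucleates branched actin, was at 71.2, 69.9 and 73.3 CPM at 2 years and 75.9, 78.8 and 74.8 CPM at 4 months. That difference did not pass the test (log2 fold change -0.10 ± 0.06, SE, edgeR adjusted p = 0.224). Advillin, an actin-binding protein of the villin family, rose, at 20.5, 17.1 and 23.3 CPM at 2 years, against 11.7, 11.6 and 12.4 CPM at 4 months. Of 10 tested actin and muscle contigs, 6 were higher (60%), 2 lower (20%) and 2 not called, against 82.1% higher and 11.4% lower of named contigs.

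The collagen alpha 1 (II) chain, a fibrillar collagen, was at 153, 153 and 145 CPM in contig CAP3_round1_contig_8075 at 2 years, against 252, 221 and 229 CPM at 4 months. Its log2 fold change was -0.64 ± 0.08 (SE, edgeR adjusted p = 3.0e-05). Over 17 tested matrix contigs 11 were higher (64.7%), 2 lower (11.8%) and 4 not called. Of named contigs, from which the list was drawn, 82.1% were higher and 11.4% lower. Hemicentin-2, a basement membrane protein, rose in contig CAP3_round1_contig_3403, at 23.8, 12.6 and 22.1 CPM at 2 years, against 0.07, 0.55 and 0.38 CPM at 4 months. Aggrecan core protein contig Bot_c3785, a cartilage proteoglycan homolog, fell, at 1.52, 1.48 and 1.48 CPM at 2 years, against 5.42, 7.11 and 6.06 CPM at 4 months. A second Aggrecan contig, Bot_rep_c45512, rose, at 21.5, 14.3 and 19.6 CPM at 2 years, against 1.90, 4.79 and 3.15 CPM at 4 months. The summed matrix level differed little, at 322, 311 and 317 CPM at 2 years and 355, 356 and 324 CPM at 4 months. Much of this sum was the collagen contig above, which fell, so the sum does not show the change of the other matrix contigs.

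Genes of cell death and division were few. Of 5 tested cell death contigs, 2 were higher, 2 lower and 1 not called. Caspase 2, an initiator protease of apoptosis, was low throughout, at 1.04, 1.25 and 1.25 CPM in contig Bot_c10337 at 2 years, against 2.30, 1.88 and 2.05 CPM at 4 months (log2 fold change -0.80 ± 0.21, SE, edgeR adjusted p = 0.00787). Programmed cell death protein 5 was at 14.03, 12.5 and 14.1 CPM at 2 years, against 18.6, 17.2 and 18.4 CPM at 4 months, a log2 fold change of -0.42. Cell division cycle protein 23, a subunit of the anaphase-promoting complex, was at 4.63, 3.37 and 3.31 CPM at 2 years and 4.34, 4.48 and 4.25 CPM at 4 months. It did not pass the test (log2 fold change -0.22 ± 0.16, SE, edgeR adjusted p = 0.288), but did so without replicate 1 of the 2-year-old libraries (log2 fold change -0.38, edgeR adjusted p = 0.0751). The main text of the paper lists 10 contigs, which include the actin, tubulin, collagen, cell death and cell division contigs above. Of these 10, 8 were lower at 2 years, 0 were higher and 2 were not called. Of all tested contigs 28.3% were lower, and of named contigs 11.4%. The study chose the 10 for differing between 3 years and 4 months in libraries that include SMH_g3, so their direction is not independent evidence.

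**Figure D3:**
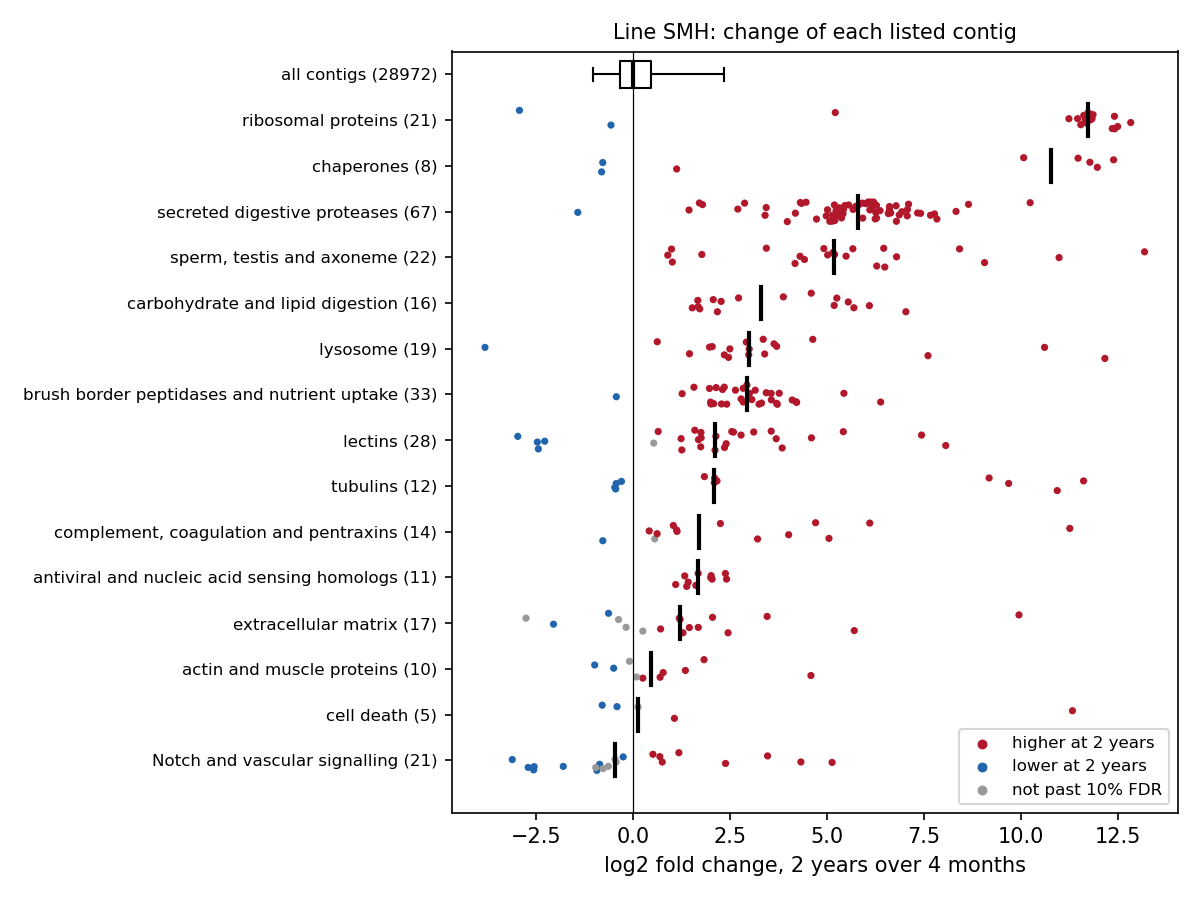
Log2 fold change (2 years over 4 months, horizontal) of every tested contig of 15 lists, colored by its call, with a black bar at the median of each list, above which a box gives the quartiles and median of all contigs and whiskers their central 90%. Values beyond about 10 belong to contigs with few or no reads at 4 months, whose fitted change is not a measured fold. All tested contigs of the carbohydrate and lipid digestion, sperm and antiviral lists lie to the right of zero, as do all but 1 of the digestive proteases (lowest value -1.43) and all but 1 of the brush border list (-0.44), and the Notch and vascular list lies on both sides.

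Homologs of immune genes were higher about as often as named contigs in general, of which 82.1% were higher. Lectins, the sugar-binding proteins that mark particles for blood cells, were higher in 23 of 28 tested contigs (82.1%), lower in 4 and not called in 1, with a median log2 fold change of 2.12. Macrophage mannose receptor 1, an endocytic lectin of mammalian macrophages, was higher in 9 of 9 tested contigs, and its 12 contigs summed to 161, 106 and 157 CPM at 2 years, against 16.0, 29.1 and 26.9 CPM at 4 months. This is the order of libraries seen in the gut lists, with replicate 2 the lowest at 2 years. Ficolin-2, which starts the lectin pathway of complement, was at 8.71, 11.6 and 8.61 CPM in contig Bot_rep_c43415 at 2 years, against 0.07, 0 and 0.05 CPM at 4 months. The lectins that fell were 3 contigs of C-type lectin domain family 4 and a galectin. The list was matched on human names, so it leaves out the 9 contigs named Latrophilin-2, whose Ciona homologs are lectins and which all fell. In C-type lectin domain family 4 member C, contig Bot_rep_c36310 was at 4.49, 5.77 and 7.76 CPM at 2 years, against 26.6, 34.0 and 39.9 CPM at 4 months. Galectin-8 was at 0.62, 0.55 and 0.46 CPM at 2 years, against 4.14, 4.20 and 4.53 CPM at 4 months.

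Complement, coagulation and pentraxin homologs were higher in 12 of 14 tested contigs (85.7%), lower in 1 and not called in 1. Coagulation factor XII, the protease that starts contact clotting in mammals, was at 124, 76.8 and 136 CPM in contig CAP3_round1_contig_8067 at 2 years, against 5.15, 7.19 and 8.40 CPM at 4 months (log2 fold change 4.01 ± 0.33, SE, edgeR adjusted p = 5.4e-04). Its homolog in the ascidian Ciona is a cationic trypsin, as for the Trypsin-2 contigs, and replicate 2 was the lowest 2-year-old library, as in the gut lists. Plasma kallikrein contig CAP3_round1_contig_2527 was at 3.11, 13.9 and 6.73 CPM at 2 years, with 0 reads at 4 months, and its call (edgeR adjusted p = 0.0496) was lost without replicate 3 of the 2-year-old libraries (adjusted p = 0.189). Neuronal pentraxin-2 gave contigs in both directions. Its contig Bot_rep_c45268 was at 15.4, 20.5 and 15.3 CPM at 2 years, against 25.4, 37.3 and 25.6 CPM at 4 months. Complement C3, the central complement protein, rose little in contig Bot_rep_c37224, at 5.67, 5.45 and 4.16 CPM at 2 years, against 2.85, 4.36 and 4.15 CPM at 4 months (log2 fold change 0.41 ± 0.19, SE, edgeR adjusted p = 0.0837), and the ages overlapped.

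The antiviral and nucleic acid sensing homologs rose by a narrower range than the gut genes. All 11 tested contigs were higher, with log2 fold changes of 1.09 to 2.41. Of named contigs 82.1% were higher, and of all tested contigs 29.1%. The list median of 1.68 lay below the 2.71 of named contigs. RNF213, a large ubiquitin ligase, was at 43.5, 46.3 and 42.3 CPM in contig CAP3_round1_contig_5735 at 2 years, against 13.2, 14.8 and 13.3 CPM at 4 months (log2 fold change 1.68 ± 0.08, SE, edgeR adjusted p = 1.2e-08). Summed over the list, the level was 102, 102 and 84.8 CPM at 2 years, against 29.1, 30.0 and 28.7 CPM at 4 months. Replicate 3, not replicate 2, was the lowest 2-year-old library here.

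Notch and vascular signalling homologs moved both ways. Notch receptors and their Jagged ligands pass signals between touching cells, and in vertebrates they take part in vessel branching. Of 21 tested contigs 8 were higher (38.1%), 8 lower (38.1%) and 5 not called, with a median log2 fold change of -0.47. All tested contigs split evenly too (29.1% higher and 28.3% lower). Named contigs, from which the list was drawn, did not (82.1% higher and 11.4% lower). The most abundant was Stabilin-2, a scavenger receptor of sinusoidal endothelium in mammals, whose Ciona homolog is a Notch protein. Its contig CAP3_round1_contig_9123 was at 703, 445 and 552 CPM at 2 years, against 53.6, 40.2 and 60.2 CPM at 4 months, a log2 fold change of 3.47 ± 0.23 (SE, edgeR adjusted p = 3.1e-05). A group of 3 contigs named for Notch receptors fell by similar steps. Of these, Notch 3 contig CAP3_round1_contig_9029 was at 5.46, 4.62 and 5.02 CPM at 2 years, against 28.2, 34.4 and 35.9 CPM at 4 months (log2 fold change -2.71 ± 0.12, SE, edgeR adjusted p = 3.7e-09). The others, named Notch 1 (CAP3_round1_contig_9441) and Notch 2 (Bot_rep_c45034), had log2 fold changes of -2.57 and -2.56. A further Notch 2 contig, Bot_c9864, rose instead, at 14.4, 9.28 and 11.6 CPM at 2 years, against 0.27, 0.55 and 0.86 CPM at 4 months. Protein jagged-1 was lower in 1 of 3 tested contigs. The contig that fell, Bot_rep_c57656, had the lowest log2 fold change of the list (-3.12, edgeR adjusted p = 3.8e-06), at 0.48, 0.88 and 0.29 CPM at 2 years, against 4.54, 5.22 and 5.11 CPM at 4 months. Its most abundant contig, CAP3_round1_contig_5371, varied within an age, at 6.77, 27.8 and 9.07 CPM at 2 years and 11.9, 33.6 and 40.4 CPM at 4 months, and was not called (edgeR adjusted p = 0.372), nor was the remaining one (adjusted p = 0.513).

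Latrophilin-2 and Sulfotransferase 1C4 fell steeply. Latrophilin-2 is in vertebrates an adhesion receptor coupled to G proteins, but the Ciona homolog of all 9 contigs of this name is a rhamnose-binding lectin. All 9 contigs were lower at 2 years, with log2 fold changes of -3.97 to -2.45, and together they were at 167, 169 and 194 CPM at 2 years, against 1180, 1331 and 1435 CPM at 4 months. Contig CAP3_round1_contig_6537 was at 16.1, 17.3 and 22.2 CPM at 2 years, against 202, 232 and 257 CPM at 4 months (log2 fold change -3.63 ± 0.14, SE, edgeR adjusted p = 8.1e-08). Contigs CAP3_round1_contig_5544 and Bot_c34719 had log2 fold changes of -3.97 and -3.30. Sulfotransferase 1C4, a cytosolic enzyme that adds sulfate to small molecules, was at 15.1, 15.1 and 17.9 CPM in contig Bot_c9565 at 2 years, against 204, 228 and 263 CPM at 4 months (log2 fold change -3.86 ± 0.12, SE, edgeR adjusted p = 5.9e-10). Among contigs above 10 CPM with no homolog name at hand, the largest fall was that of Bot_rep_c45892, at 0.28, 0.37 and 0.29 CPM at 2 years, against 20.5, 28.04 and 28.2 CPM at 4 months. The next, Bot_c988, was at 0.48, 0.83 and 0.63 CPM at 2 years, against 29.4, 34.7 and 50.8 CPM at 4 months.

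**Figure D4:**
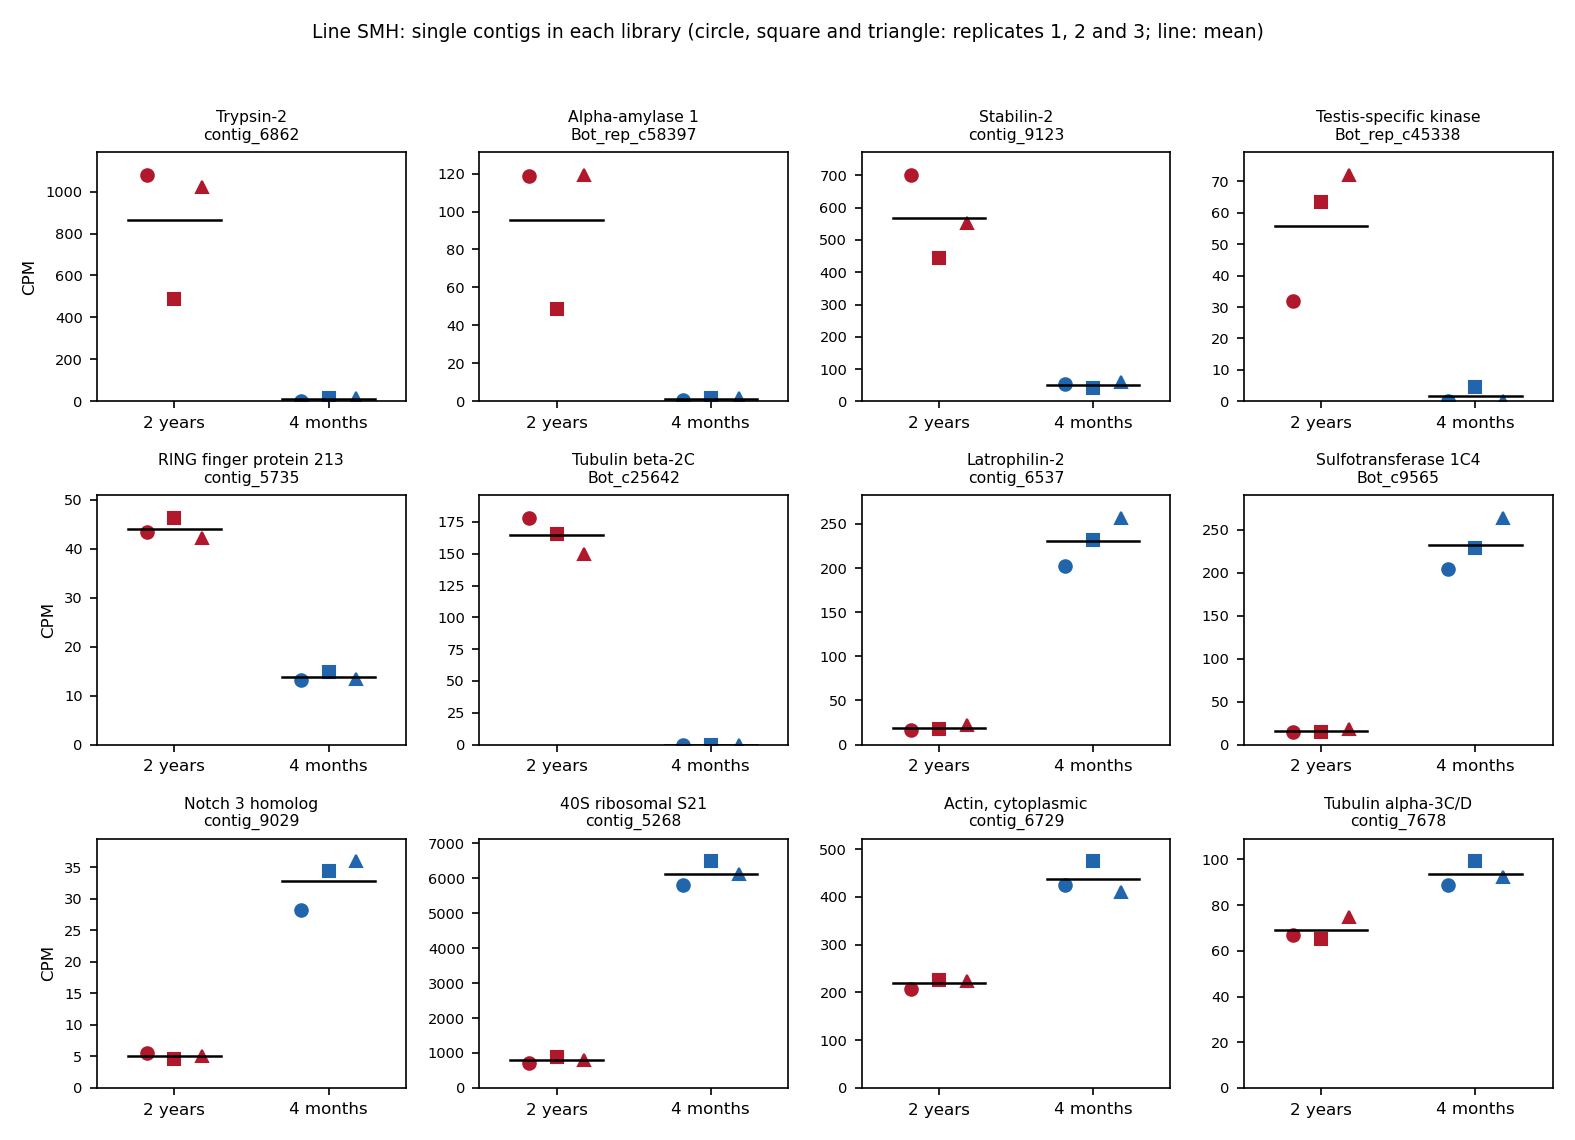
CPM of 12 named contigs in each library, 2 years left of 4 months, each axis from 0, with 1 mark for each replicate and a line at the mean of 3. The ages do not overlap in any panel, from the fall of Tubulin alpha-3C/D (65.1 to 74.8 against 88.8 to 99.2 CPM) to the rise of Trypsin-2 (488 to 1081 against 3.66 to 16.5 CPM).

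Ribosomal proteins held the most abundant of all contigs that fell, and contigs that were found at 2 years alone. 40S ribosomal protein S21 contig CAP3_round1_contig_5268 was at 727, 880 and 797 CPM at 2 years, against 5798, 6487 and 6122 CPM at 4 months, a log2 fold change of -2.94 ± 0.15 (SE, edgeR adjusted p = 1.3e-08). Of 21 tested ribosomal contigs, 19 were higher (90.5%) and 2 lower, against 82.1% higher of named contigs and 29.1% of all tested contigs. Among the 19, 18 had reads in every 2-year-old library and 0 reads in every 4-month-old library. These 18 passed the filter through the 2-year-old libraries alone, so their shared direction is not independent evidence. The most abundant, 60S ribosomal protein L3 contig Bot_c1928, was at 27.4, 23.3 and 21.1 CPM at 2 years, from 2542 reads, at least 966-fold higher than at 4 months. The next were contigs Bot_c5001 of 60S ribosomal protein L15 (at least 768-fold), Bot_c6686 of 40S ribosomal protein SA (at least 732-fold) and Bot_c3635 of 40S ribosomal protein S4, Y isoform 1 (at least 717-fold), whose Ciona homolog is a Lon protease. The fitted median of the list is 11.73 and becomes 8.81 with these 18 contigs at their bound.

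Chaperones showed the same split. Of 8 tested contigs, 6 were higher (75%) and 2 lower, against 82.1% higher of named contigs. Of the 6, 5 had 0 reads at 4 months and passed the filter through the 2-year-old libraries alone. Stress-70 protein, the mitochondrial Hsp70, was at 19.6, 17.5 and 15.7 CPM in contig Bot_c24744 at 2 years and at 0 at 4 months, at least 714-fold higher. The chaperonin subunit 10 kDa heat shock protein was instead lower, at 27.98, 29.8 and 30.6 CPM in contig CAP3_round1_contig_5525 at 2 years, against 54.9, 50.1 and 50.7 CPM at 4 months (log2 fold change -0.82 ± 0.07, SE, edgeR adjusted p = 2.4e-06). With all 27 libraries scaled together, the 18 ribosomal contigs summed to 241 CPM in SMH at 2 years and 66.7 CPM in line SMG at 3 years, and to at most 0.13 CPM in each of the other 7 groups of the series. Tubulin contigs Bot_c25642 and Bot_c19190 and histone contig Bot_c4120 reached 1 CPM in the same groups only. Whether these contigs come from Botryllus or from another organism in or on the colonies was not tested.

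The same ages were compared in lines SB825 and SMG, which tells how far the SMH change is shared. A fit of the 18 libraries at 2 years and 4 months tested the SMH change against the mean change of the other lines, and 17883 of 34800 contigs (51.4%) differed at 10% FDR. The count was 11488 against SB825 alone and 23369 against SMG alone. In 8496 contigs (24.4%) the SMH change was also opposite in sign to that mean. The gut lists had medians above 0 in every line. In the digestive proteases the median log2 fold change was 5.82 in SMH, 4.20 in SB825 and 2.46 in SMG, and 12 of 68 contigs passed the test of the difference. These values rest on 1 library, since the list summed to 4194, 693 and 274 CPM in the 4-month-old SMG libraries. Without SMG_g3 replicate 1, the SMG median was 6.47 and 2 of 68 contigs passed, which does not show that the lines are alike in the others. For the sperm list the medians were 5.02 in SMH, 1.22 in SB825 and 7.78 in SMG, and 10 of 38 contigs passed. Contigs at 0 in a whole group cannot be compared between lines by this fit, because its values for them depend on the prior count.

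The 4 tubulins that fell separated the lines. Tubulin alpha-3C/D contig CAP3_round1_contig_7678 changed by -0.03 in SB825 and by -3.87 in SMG on the log2 scale, so the SMH change was 1.45 ± 0.12 above their mean (SE, edgeR adjusted p = 1.5e-08). The other 3 gave differences of 1.26 to 1.37. In all 4 the SMH change lay between those of SB825 and SMG, so these differences rest on the steep fall in SMG. Cytoplasmic actin changed by -0.21 in SB825 and -1.68 in SMG, and the SMH change did not differ from their mean by the test (difference -0.11 ± 0.14, SE, edgeR adjusted p = 0.546). Sulfotransferase 1C4 fell in all 3 lines, by -5.95 in SB825 and -6.10 in SMG, and less in SMH (difference 2.11 ± 0.56, SE, edgeR adjusted p = 0.00811). 40S ribosomal protein S21 changed by -0.26 in SB825 and -2.26 in SMG, so its fall was steeper in SMH (difference -1.74 ± 0.10, SE, edgeR adjusted p = 2.0e-10).

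Set beside the 3-year-old SMH_g1 libraries, on CPM scaled over all 27 libraries, some levels moved one way at each age and others turned at 2 years. Of the 15 list sums, 9 were highest and 2 lowest at 2 years, while 3 were higher and 1 was lower at each later age. Digestive proteases summed to 502, 10170 and 6714 CPM at 4 months, 2 years and 3 years in SMH, with SDs of 191, 3682 and 2488 CPM (n = 3 each). Stabilin-2 contig CAP3_round1_contig_9123 was at 55.2, 582 and 350 CPM at the same ages. Latrophilin-2 contig CAP3_round1_contig_6537 was at 248 CPM at 4 months, 19.1 CPM at 2 years and 142 CPM at 3 years, so the lowest level in SMH was at 2 years. Sulfotransferase 1C4 followed the same course, at 249 CPM, 16.5 CPM and 94.9 CPM. The list sums that ascended were the lectins, at 114, 263 and 336 CPM, and the complement, coagulation and pentraxin homologs, at 87.3, 323 and 595 CPM. The sum of the Notch and vascular homologs also did, at 307, 701 and 923 CPM. Single contigs carried 1 step of the complement sum and 1 step of the Notch sum. Neuronal pentraxin-2 contig Bot_rep_c45268 (31.7, 17.5 and 326 CPM) carried the complement rise from 2 to 3 years, but was lower at 2 years than at 4 months. The Stabilin-2 contig above carried the Notch rise from 4 months to 2 years, but was lower at 3 years than at 2 years. Without these contigs neither sum would ascend at each age. Of the 10 contigs of the paper's main text, 8 descended at each age, among them cytoplasmic actin, at 470, 225 and 43.6 CPM, and Tubulin alpha-3C/D, at 100.7, 70.9 and 23.6 CPM. The study listed them on a comparison of 3 years with 4 months that used these libraries, so that course is not independent evidence. These ages share the 4-month-old libraries and come from 3 genotype names, so the courses are given as levels with no test.

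**Figure D5:**
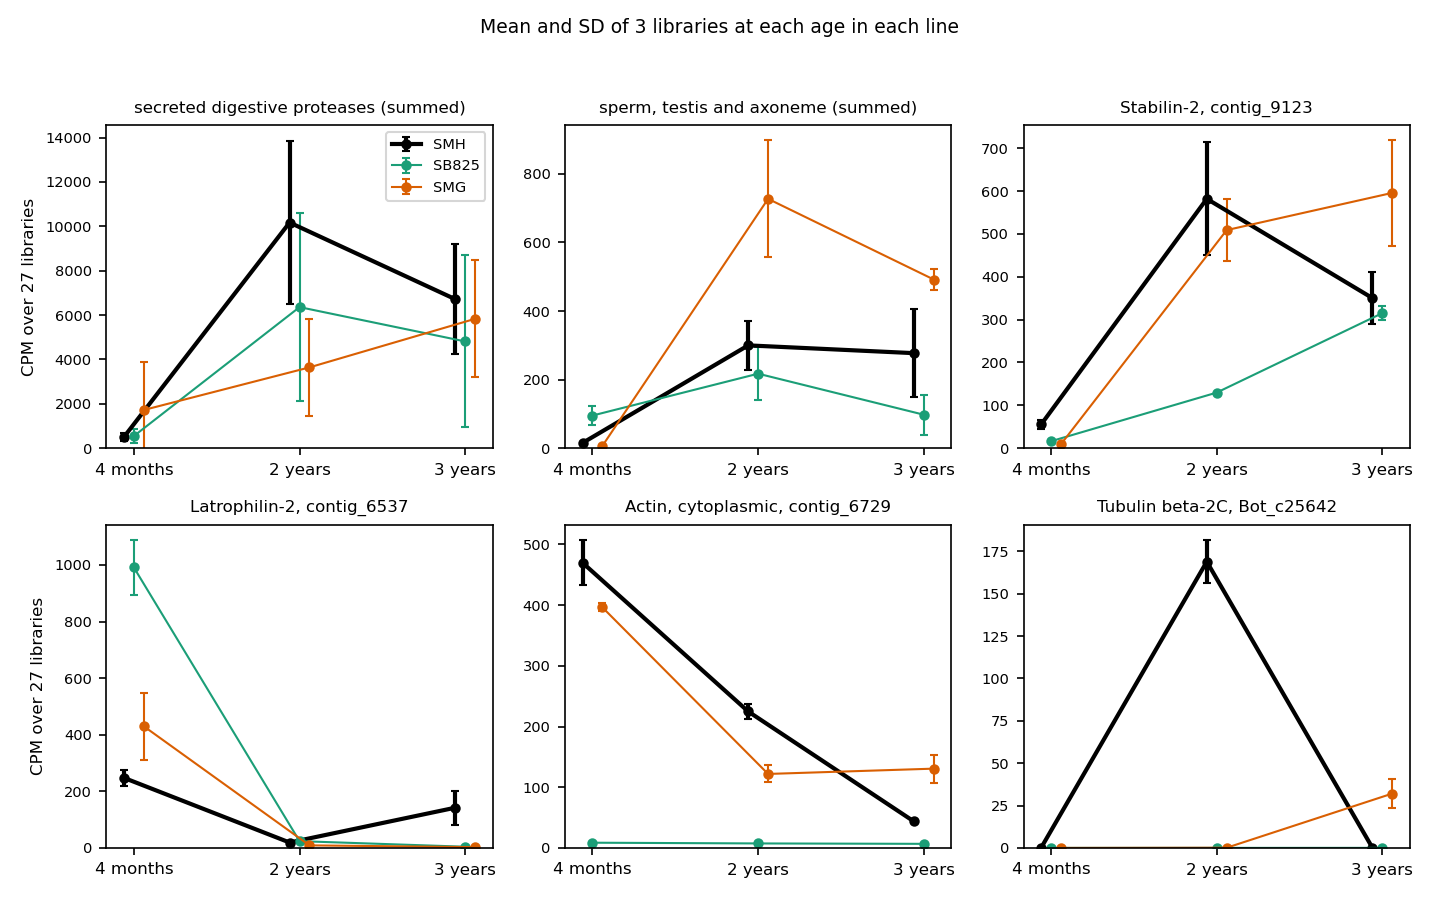
Mean CPM scaled over all 27 libraries at 4 months, 2 years and 3 years (horizontal) in SMH (black), SB825 (green) and SMG (orange), with bars of 1 SD over 3 libraries that are cut at 0. In SMH the proteases and Stabilin-2 peak at 2 years, Latrophilin-2 is lowest at 2 years (19.1 CPM), actin descends at each age, and Tubulin beta-2C contig Bot_c25642 reaches 1 CPM at 2 years (169 CPM) and otherwise only in SMG at 3 years (32.1 CPM).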

How the data were processed

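RNA of whole colonies was captured by its polyA tail and sequenced as paired ends on an Illumina HiSeq instrument by the authors, who removed the start of every read, aligned the pairs to an EST assembly with Bowtie 0.12.7, counted reads per contig with Sam2Counts and SAMtools 0.1.18, and deposited the raw counts per contig in 1 table. Every count in it is even, so both reads of a pair were counted and reads are not independent molecules. A second deposited table holds the authors' own fold changes and p-values for 3 years against 4 months and was not used. The submitters' processing notes also name CASAVA 1.8.2, FastQC and DESeq 1.10.1.

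The 6 SMH libraries at 2 years and 4 months were scaled with TMM in edgeR 4.0.16 (R 4.3.3), and contigs at 1 CPM or more in 3 or more libraries were tested by glmQLFit (robust) and glmQLFTest, with Benjamini-Hochberg adjustment over all contigs tested and a threshold of 10% FDR. The log2 fold change is 2 years minus 4 months, and its SE was taken from the fold change and the F statistic. At a depth of 31013902 to 45419128 reads, the floor of 3 reads equals 0.0589 to 0.104 CPM, and folds given as "at least" use 3 reads over the group. The chi-square per degree of freedom between libraries of an age was 5.44 to 15.8, so all 6 were kept as separate samples. The SMH change was set against the mean change of SB825 and SMG in a fit of 18 libraries. The label SMG and the column name SMGO were taken as 1 line. Levels over all 27 libraries were scaled together.

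Lists were made by matching homolog names, and both members and lists were chosen with earlier results of these data known. The names came from the paper's main text and from the part at hand of a supplementary table. Contigs were named by rule: those of the main text, in each list the one with most reads and those with the highest and lowest called change (5 CPM or more at the higher age, ages not overlapping), the 5 largest changes each way among named and the 2 each way among unnamed contigs (10 CPM or more), and the 3 named contigs of highest level. Other contigs in the text were chosen after their values were seen. The correlations of deviations for libraries of the same number were 0.076, -0.039 and -0.116, so numbers were not taken to pair libraries. The code was tested on simulated data. Alternatives were RLE factors, library totals, other filters, halved counts, DESeq2 1.42.0, voom in limma 3.58.1, a fit of 27 libraries, a replicate block, each library left out, a 5% FDR and a test against a log2 fold change of 1.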

Additional observations from a re-analysis of the deposited data

Results flagged for a closer look

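The change between 2 years and 4 months in SMH differed from the mean change of SB825 and SMG in 17883 contigs at 10% FDR (edgeR), 6978 above and 10905 below that mean, and in 11488 with SB825 alone and 23369 with SMG alone as the other line. Values below are differences in log2 fold change, SMH minus the mean of the other lines, for named contigs past that threshold, with adjusted p-values of 1.97e-10 to 0.0855. Without SMG_g3 replicate 1, the 4-month-old library that stood apart in the digestive proteases, 3 of these contigs were no longer past it, Carboxypeptidase A2 (1.48, adjusted p = 0.998), Alpha-amylase 1 (1.75, adjusted p = 0.207) and Neuronal pentraxin-2 (-0.52, adjusted p = 0.1002). Among contigs that rose in SMH, the difference was 5.42 for Carboxypeptidase A2 contig Bot_rep_c34931, 3.68 for Alpha-amylase 1, 1.65 for Coagulation factor XII, -0.999 for Stabilin-2, -1.85 for Glutamyl aminopeptidase contig Bot_rep_c54104 and -2.77 for Advillin.

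Among contigs that fell in SMH, the fall was smaller than the mean of the other lines for C-type lectin contig Bot_rep_c36310 (5.22), Sulfotransferase 1C4 (2.11), Latrophilin-2 contig CAP3_round1_contig_6537 (1.77), Notch 3 contig CAP3_round1_contig_9029 (1.22), Sodium-coupled monocarboxylate transporter 1 contig Bot_c17643 (0.89) and the 10 kDa heat shock protein (0.47). It was larger for 40S ribosomal protein S21 (-1.74), Latrophilin-2 contig CAP3_round1_contig_5544 (-1.36) and Neuronal pentraxin-2 contig Bot_rep_c45268 (-0.60). The contigs of the paper's main text gave 1.45 for Tubulin alpha-3C/D, 1.37 for Tubulin alpha-1A, 1.27 for Tubulin alpha-3E, 1.26 for Tubulin beta-2C, 1.26 for Actin related protein 2/3, 1.23 for Cell division cycle protein 23 and 1.17 for Programmed cell death protein 5. For the tubulins and Actin related protein 2/3, SMH lay between the other lines, close to SB825 and far from SMG. Tubulin alpha-1A changed by -0.37 in SMH, -0.29 in SB825 and -3.19 in SMG. Contigs without a name gave 10.11 (Bot_c18421, with 0 reads in SMH at 4 months), -4.28 (Bot_c988) and -10.02 (Bot_rep_c45892, at 0 in SMG at 4 months), and the values of contigs at 0 in a group depend on the prior count of the fit.

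Contigs at 5 CPM or more at 2 years and 0.1 CPM or less at 4 months in SMH numbered 163, and had reads in libraries outside the comparison. On CPM scaled over 27 libraries they summed to 2873 in SMH at 2 years, 4.30 in SMH at 4 months and 611.2 in SMH at 3 years. In SB825 the sum was 285.5 at 4 months, 610.8 at 2 years and 493.6 at 3 years. In SMG it was 191.3 at 4 months, 1119 at 2 years and 1341 at 3 years.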

How the results depend on the processing

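Counts of called contigs stayed within 1.5 times under other scalings, filters, tests and a 5% FDR, from 14222 (library totals alone) to 20063 (no low-count filter), except for the test against a log2 fold change of 1, which called 3479 contigs, 2550 higher and 929 lower at 2 years, by its own construction. With library totals alone, 6569 contigs were higher and 7653 lower and the median log2 fold change was -0.09. Leaving out each library in turn gave 14400 to 16082 called contigs, 7540 to 8344 of them higher and 6860 to 7738 lower. With the replicate block, 16019 contigs were called (8228 higher, 7791 lower), and the labels do not say that numbers pair libraries. The difference between lines fell to 11488 contigs with SB825 alone as the other line and was 23369 with SMG alone, 17467 with the replicate block and 16438 to 16918 without each SMH library. Without SMG_g3 replicate 1, left out after seeing the data, it was 17886, but only 2 in place of 12 of the digestive proteases differed, and of 54 named contigs 50 kept their call for this difference, 3 lost it and 1 gained it. Over 54 named contigs and 15 settings, 808 values kept their direction and side of the threshold and 0 reversed. The exceptions were Plasma kallikrein, lost without SMH_g2 replicate 3 (adjusted p = 0.189), and Cell division cycle protein 23, called without SMH_g2 replicate 1 (adjusted p = 0.0751). The cause of either was not tested. No list's count moved by over 1.5 times under the library left out, RLE factors or library totals, alternatives added after seeing the data.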

Other observations

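Some contigs that share a homolog name and lie outside the lists also moved together, and these were chosen after their values were seen. Of named contigs 82.1% were higher and 11.4% lower. Other names had contigs in both directions, such as Enhancer of rudimentary homolog, with 1 higher and 1 lower of 3 tested. Stearoyl-CoA desaturase 5, which puts double bonds into fatty acids, was higher in 4 of 4 contigs, which together were at 1046, 884 and 1032 CPM at 2 years, against 5.76, 7.89 and 10.55 CPM at 4 months. Otoancorin, which the paper set aside among genes of fertility and sexual maturation, was higher in 5 of 5 contigs. Together they were at 50.5, 108 and 121 CPM at 2 years, against 1.15, 3.26 and 0.48 CPM at 4 months, with replicate 1 the lowest 2-year-old library. Cholinesterase was higher in 6 of 6 tested contigs, and its 8 contigs were at 382, 262 and 370 CPM at 2 years, against 20.9, 32.2 and 36.8 CPM at 4 months. Deoxyribonuclease-1, a secreted nuclease, was higher in 3 of 3 contigs, at 177, 87.7 and 183 CPM at 2 years, against 1.15, 2.67 and 3.67 CPM at 4 months. Perilipin-5, a coat protein of lipid droplets, was lower in 3 of 3 contigs, by log2 fold changes of -0.60 to -0.54.

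Of the 163 contigs found at 2 years and nearly absent at 4 months in SMH, 50 bore a homolog name, and 0 contigs showed the reverse. At 1 CPM or more, 144 of them were present in SMG at 3 years and 67 in SMH at 3 years, and 9 were present in no other group. They include 18 ribosomal protein and 4 chaperone contigs. The 18 and the 4 were at 1 CPM or more in SMG at 3 years and in SMH at 2 years, and in no other group. So were tubulin contigs Bot_c25642 and Bot_c19190 and histone contig Bot_c4120.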
